A study of Mus musculus with 3 samples.

Results

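The interferon regulatory factors measured here are *Irf1*, *Irf2*, *Irf3*, *Irf4*, *Irf5*, *Irf7*, *Irf8* and *Irf9*. They were taken as all probe sets of a mouse expression array to which the platform annotation gives a single gene symbol and that symbol is one of these names. This gave 14 probe sets for 8 genes, out of 34945 such probe sets for 18193 genes. The levels were read in 3 groups of macrophages with 1 array each. mTAMs were tumor-associated macrophages from the metastatic lung and pTAMs were those from the matched primary tumor, both taken 5 weeks after 4T1 cells, a mammary carcinoma line of BALB/c origin, had been placed in the mammary fat pad of BALB/c mice that were 5 to 6 weeks old. BMDM were macrophages differentiated in culture from the bone marrow of healthy mice of unstated age and strain. Whether an array holds 1 animal or a pool is not stated either, and a strain difference from the TAMs cannot be told apart from the group. All 3 groups carried no engineered allele and no drug that the labels name, and the TAMs were sorted for CD11b and F4/80. Only the TAMs came from tissue that was minced and digested with enzymes before the sort, so handling and origin cannot be told apart in a comparison with BMDM. The comparisons ask how the macrophages of either tumor site differ from BMDM and how those of the metastasis differ from those of the primary tumor.

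The family shares a DNA-binding domain that reads GAAA repeats. *Irf3* and *Irf7* are switched on by phosphorylation when sensors of nucleic acids fire and then drive interferon genes, while the *Irf9* protein joins STAT proteins in ISGF3, the complex that answers type I interferon. *Irf1* is induced by interferon gamma and inflammatory signals and *Irf2* competes with it for the same sites. *Irf5* drives inflammatory cytokines in macrophages, and *Irf4* and *Irf8*, which are restricted to immune cells, bind DNA with partners such as PU.1 and BATF. *Irf8* is needed for the monocyte and macrophage lineage, and *Irf4* acts in the response of macrophages to IL-4.

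With 1 array per group, no difference has an error across animals and no test could be made. The only spread at hand was technical, the SD between probe sets that read the same gene. It was 0.28 log2 units in mTAMs against pTAMs, 0.52 in mTAMs against BMDM and 0.43 in pTAMs against BMDM, and it holds nothing of the variation among animals, sorts or hybridizations. The arrays had medians of 5.43 in mTAMs, 5.43 in pTAMs and 5.36 in BMDM, and 11611, 11543 and 11423 genes lay above a floor of 5.3 log2 units, the level that receptors of sensory tissues reach on these arrays. All 9 macrophage markers examined lay above the floor on every array. *Adgre1*, the gene of F4/80, stood at 10.06 in mTAMs, 10.00 in pTAMs and 11.93 in BMDM, and *Itgam*, the gene of CD11b, at 11.61, 11.90 and 10.46. Because these are bulk RNA samples, fewer cells of a type and less RNA per cell cannot be told apart. Levels of different probe sets are not comparable with each other, so each gene is set only against itself on the other arrays. The summed signals of marker lists given below are likewise set only against the same list on the other arrays, and they follow the brightest probe sets of the list.

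The promoters of the family were read from RefSeq (GRCm38.p6) as windows of 300 bases, 250 before and 50 after each annotated start. All 8 genes matched, with 11 windows. Each window was searched on both strands for GAS (TTCNNNGAA), the site form of STAT dimers, for ISRE (GAAA, any 2 bases, GAAA) and EICE (GGAA, any 2 bases, GAAA), forms read by interferon regulatory factors alone or with an ETS partner, and for the NF-kB consensus. ISRE and EICE can overlap. Windows of 3 genes held a match, and they are printed below as the 250 bases before the start, 5′ to 3′, because they are the family members whose own promoters carry such letters. All lie on the plus strand, *Irf1* at chr11:53769764-53770013, *Irf2* at chr8:46739495-46739744 and *Irf8* at chr8:120736108-120736357, and capitals mark the matches.
Irf1: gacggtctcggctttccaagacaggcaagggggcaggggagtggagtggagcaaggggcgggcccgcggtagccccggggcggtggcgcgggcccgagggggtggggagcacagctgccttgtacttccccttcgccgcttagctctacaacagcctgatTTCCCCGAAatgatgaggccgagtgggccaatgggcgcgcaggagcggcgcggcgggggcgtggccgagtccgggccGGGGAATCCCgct
Irf2: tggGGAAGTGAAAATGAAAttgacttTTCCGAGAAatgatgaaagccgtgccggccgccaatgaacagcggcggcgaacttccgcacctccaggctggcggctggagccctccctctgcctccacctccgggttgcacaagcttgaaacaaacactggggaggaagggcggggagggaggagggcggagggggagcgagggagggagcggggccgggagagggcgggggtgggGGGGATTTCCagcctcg
Irf8: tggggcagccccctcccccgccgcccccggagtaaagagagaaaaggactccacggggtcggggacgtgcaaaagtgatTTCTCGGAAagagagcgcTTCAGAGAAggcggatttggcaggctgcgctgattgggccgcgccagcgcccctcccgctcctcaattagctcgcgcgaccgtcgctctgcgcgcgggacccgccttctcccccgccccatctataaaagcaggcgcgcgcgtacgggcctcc

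In *Irf1*, GAS letters lay at bases -90 to -82 and an NF-kB match at -13 to -4, with -1 the base just before the start. *Irf2* held EICE letters at -247 to -238 that overlapped ISRE letters at -241 to -232, GAS letters at -224 to -216 and an NF-kB match at -17 to -8. The *Irf8* window held GAS letters in 2 places, at -171 to -163 and at -153 to -145. The other windows, among them all those of *Irf3*, *Irf4*, *Irf5*, *Irf7* and *Irf9*, held none of these letters. GAS letters occur in 8.3% of the 32851 promoter windows in the table, NF-kB matches in 4.51%, ISRE letters in 3.44% and EICE letters in 2.72%. A match describes the letters only, and no binding was measured here.

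**Figure D1:**
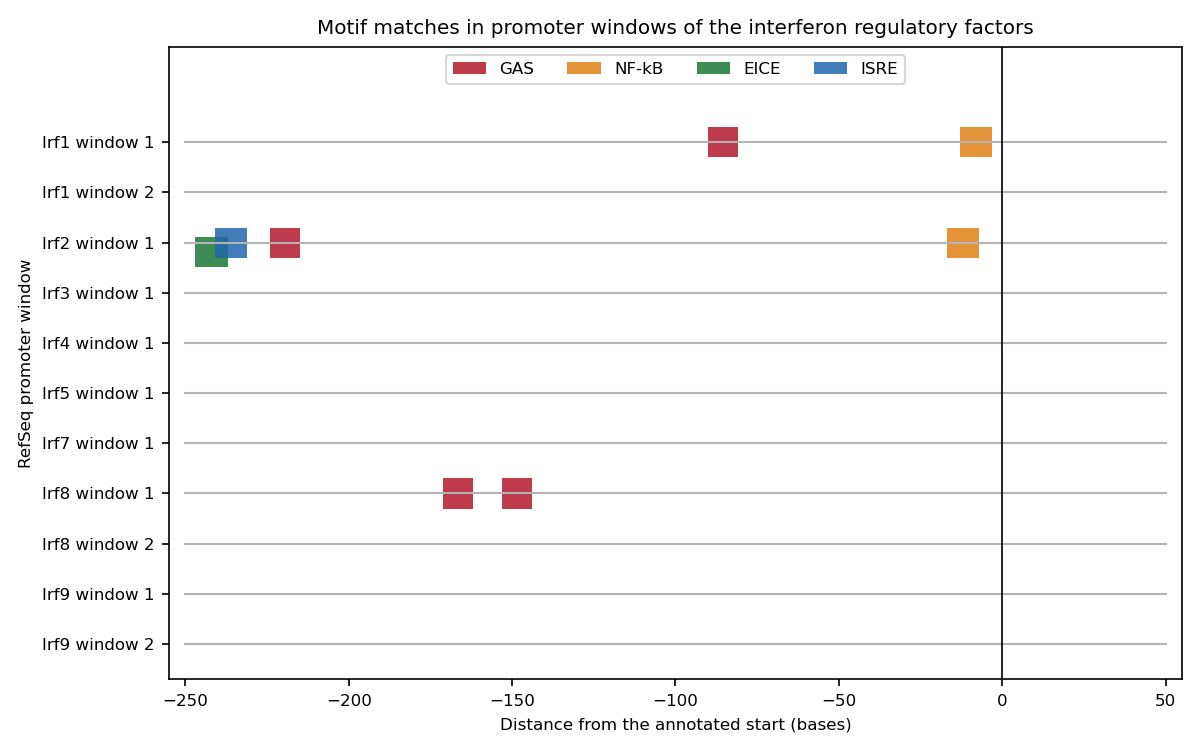
Position of motif matches in the 11 RefSeq promoter windows of the family, with the distance in bases from the annotated start on the horizontal axis and a row per window (grey line: the window searched; boxes: matches, coloured by motif). Matches are seen only in the first windows of *Irf1*, *Irf2* and *Irf8*, and the EICE box of *Irf2*, drawn slightly lower, overlaps its ISRE box.

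*Irf1* had the largest difference of the family, with a level 5.94-fold higher in mTAMs and 5.03-fold higher in pTAMs than in BMDM. *Irf2* was 2.08-fold higher in mTAMs than in BMDM. On their brighter probe sets, *Irf5* and *Irf8* were each 2.08-fold lower in mTAMs than in pTAMs. Their dimmer probe sets did not reach 2-fold there, at -0.15 log2 units for *Irf5* and -0.78 for *Irf8*. *Irf3* and *Irf9*, on the probe sets used for them, differed by less than 1.5-fold in every comparison, *Irf7* was lower in both kinds of TAMs than in BMDM by less than 2-fold, and *Irf4* was not above the floor on any array.

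A gene was compared where either of the arrays had it above the floor, and it was called higher or lower at a 2-fold difference, 1 log2 unit. Of the 8 members, 7 were compared in each case. In pTAMs against BMDM, 1 member was higher and 0 were lower, while 8.78% of all 11859 compared genes were higher and 7.5% were lower, 16.3% in either direction. In mTAMs against BMDM, 2 members were higher and 0 lower, with 11.5% of 11945 genes higher and 14.4% lower, 25.8% in either direction. In mTAMs against pTAMs, 0 members were higher and 2 were lower, with 5.36% of 11801 genes higher and 2.58% lower, 7.94% in either direction. With 7 members, counts of 1 and 2 are too small to be read as a difference from these shares. The median difference of the members was 0.58 in pTAMs against BMDM, 0.18 in mTAMs against BMDM and 0.17 in mTAMs against pTAMs, and the medians over all compared genes were -0.05, -0.11 and -0.06. The 2 comparisons with BMDM share that array.

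**Figure D2:**
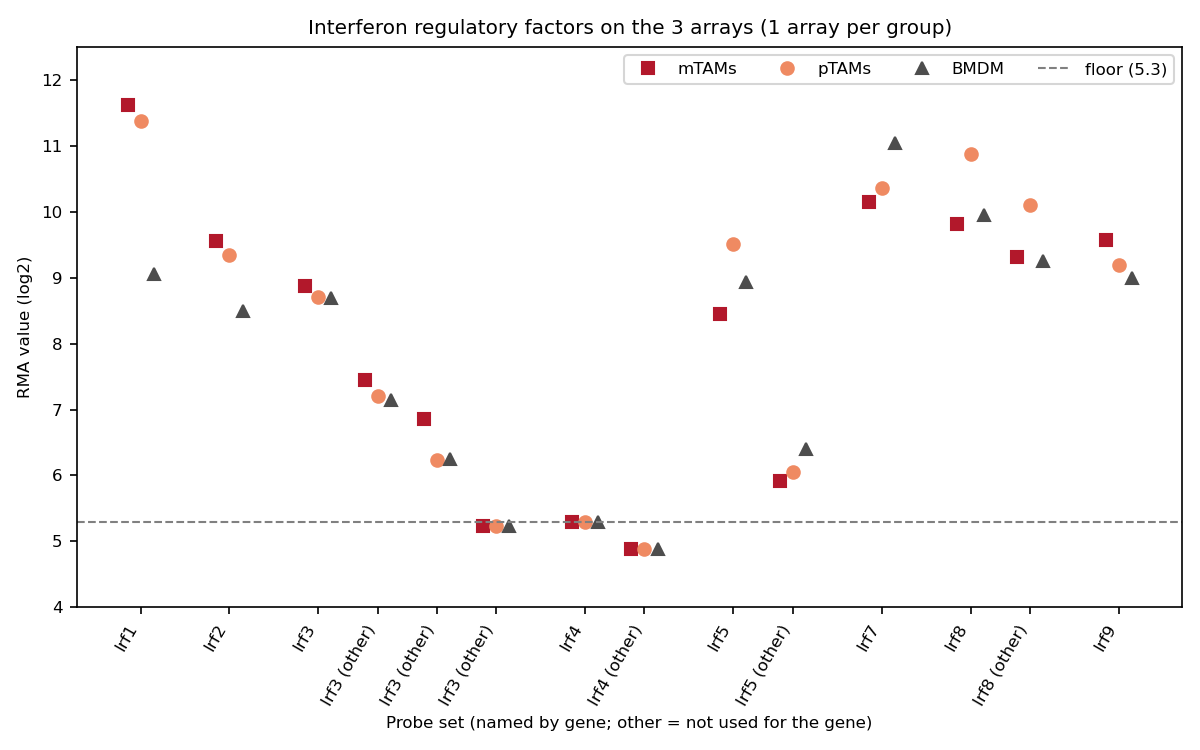
RMA values (log2) of all 14 probe sets of the family on the mTAMs, pTAMs and BMDM arrays, 1 array per group (dashed line: floor of 5.3). The BMDM triangle lies far below both TAM values for *Irf1*, the pTAM circle lies on top for both probe sets of *Irf8*, and 3 probe sets lie at or below the floor with the same value on all arrays.

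*Irf1*, an activator of antigen presentation and of guanylate-binding proteins, was read by 1 probe set. It had 11.62 log2 units in mTAMs and 11.38 in pTAMs, against 9.05 in BMDM. Both TAM arrays were high and BMDM low, and the TAM arrays lay within 0.24 log2 units of each other. The difference was 2.57 in mTAMs against BMDM, which is 4.91 times the SD between probe sets, and 2.33 in pTAMs against BMDM, which is 5.45 times that SD. Only 3.75% and 3.17% of the compared genes had a larger positive difference in these comparisons. The difference between mTAMs and pTAMs was 0.84 times the SD between probe sets and so within it.

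*Irf2*, which occupies the same sites and restrains interferon-driven transcription, had 9.56 in mTAMs and 9.34 in pTAMs, against 8.50 in BMDM, on its 1 probe set. The order of the arrays was the same as for *Irf1*, over a smaller range. The difference came to 1.06 in mTAMs against BMDM, 2.02 times the SD between probe sets, with 10.8% of genes above it, and to 0.84 in pTAMs against BMDM, 1.96 times the SD, with 9.98% of genes above it. With each array centred on its median the difference in mTAMs against BMDM was 0.99, below the 2-fold threshold. The name of this probe set marks it as able to read related transcripts of other genes.

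Among the factors that sensors of nucleic acids activate, *Irf3* is present before stimulation and *Irf7* is itself induced by interferon. *Irf3* had 4 probe sets, of which the brightest gave 8.88 in mTAMs, 8.71 in pTAMs and 8.70 in BMDM. These are the closest values of any member above the floor. Another gave 7.45, 7.20 and 7.14, and the probe set not shared with other transcripts gave 6.85 in mTAMs, 6.23 in pTAMs and 6.25 in BMDM. The last of them stood at 5.23 on all 3 arrays, below the floor. All 3 probe sets above the floor were highest in mTAMs, but the size of that difference was 0.17, 0.25 and 0.62 log2 units against pTAMs, so the probe sets did not give a single answer.

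*Irf7* had 10.15 in mTAMs and 10.36 in pTAMs, against 11.04 in BMDM, on 1 probe set. It was the single member lower on both TAM arrays than in BMDM by more than the SD between probe sets. The differences were -0.89 in mTAMs, 1.85-fold lower, and -0.68 in pTAMs, 1.6-fold lower, which are 1.70 and 1.59 times the SD between probe sets. Of the compared genes, 17.3% and 13.8% had lower values still.

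*Irf9*, the DNA-binding subunit of ISGF3, had 9.57 in mTAMs, 9.20 in pTAMs and 9.0 in BMDM on 1 probe set. The mTAM array was highest, by 0.57 over BMDM, which is 1.09 times the SD between probe sets, and by 0.37 over pTAMs, which is 1.30 times the SD. The pTAM value exceeded that of BMDM by 0.20, within the SD. *Stat2*, the gene of the partner of the *Irf9* protein in ISGF3, had 8.16 in mTAMs, 8.08 in pTAMs and 8.08 in BMDM.

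*Irf5*, a driver of inflammatory cytokine genes in macrophages, had 8.45 in mTAMs, 9.51 in pTAMs and 8.93 in BMDM on its brighter probe set. The pTAM array was highest and the mTAM array lowest. The difference between mTAMs and pTAMs was -1.06, 3.73 times the SD between probe sets, with 2.18% of genes below it. pTAMs exceeded BMDM by 0.58, and mTAMs against BMDM gave -0.48. The dimmer probe set did not share this order. It had 5.91 in mTAMs, 6.06 in pTAMs and 6.40 in BMDM, with differences of -0.15 in mTAMs against pTAMs, -0.34 in pTAMs against BMDM and -0.49 in mTAMs against BMDM. The sign of pTAMs against BMDM was thus opposite on the 2 probe sets, and with the mean of both the difference between mTAMs and pTAMs was -0.60, below the 2-fold threshold.

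*Irf8*, the lineage factor of monocytes, macrophages and dendritic cells, had 9.82 in mTAMs, 10.88 in pTAMs and 9.95 in BMDM on its brighter probe set. Only the pTAM array stood out. The second probe set gave 9.32 in mTAMs, 10.10 in pTAMs and 9.25 in BMDM and placed pTAMs highest as well. mTAMs against pTAMs gave -1.06 on the first, 3.73 times the SD between probe sets, and -0.78 on the second. pTAMs exceeded BMDM by 0.93 and 0.85, while mTAMs against BMDM gave -0.13 and 0.07, both within the SD. Over the normalizations and filters tried, *Irf8* in mTAMs against pTAMs ranged from -1.06 to -0.91, so its sign held and its side of the 2-fold threshold did not. *Irf4*, the relative of *Irf8* that acts downstream of IL-4, was listed at 5.30 on all 3 arrays, with a second probe set at 4.88 on all 3, and no difference of this gene was detectable on these arrays. Identical values on all 3 arrays were found for 21.4% of all probe sets on the platform.

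**Figure D3:**
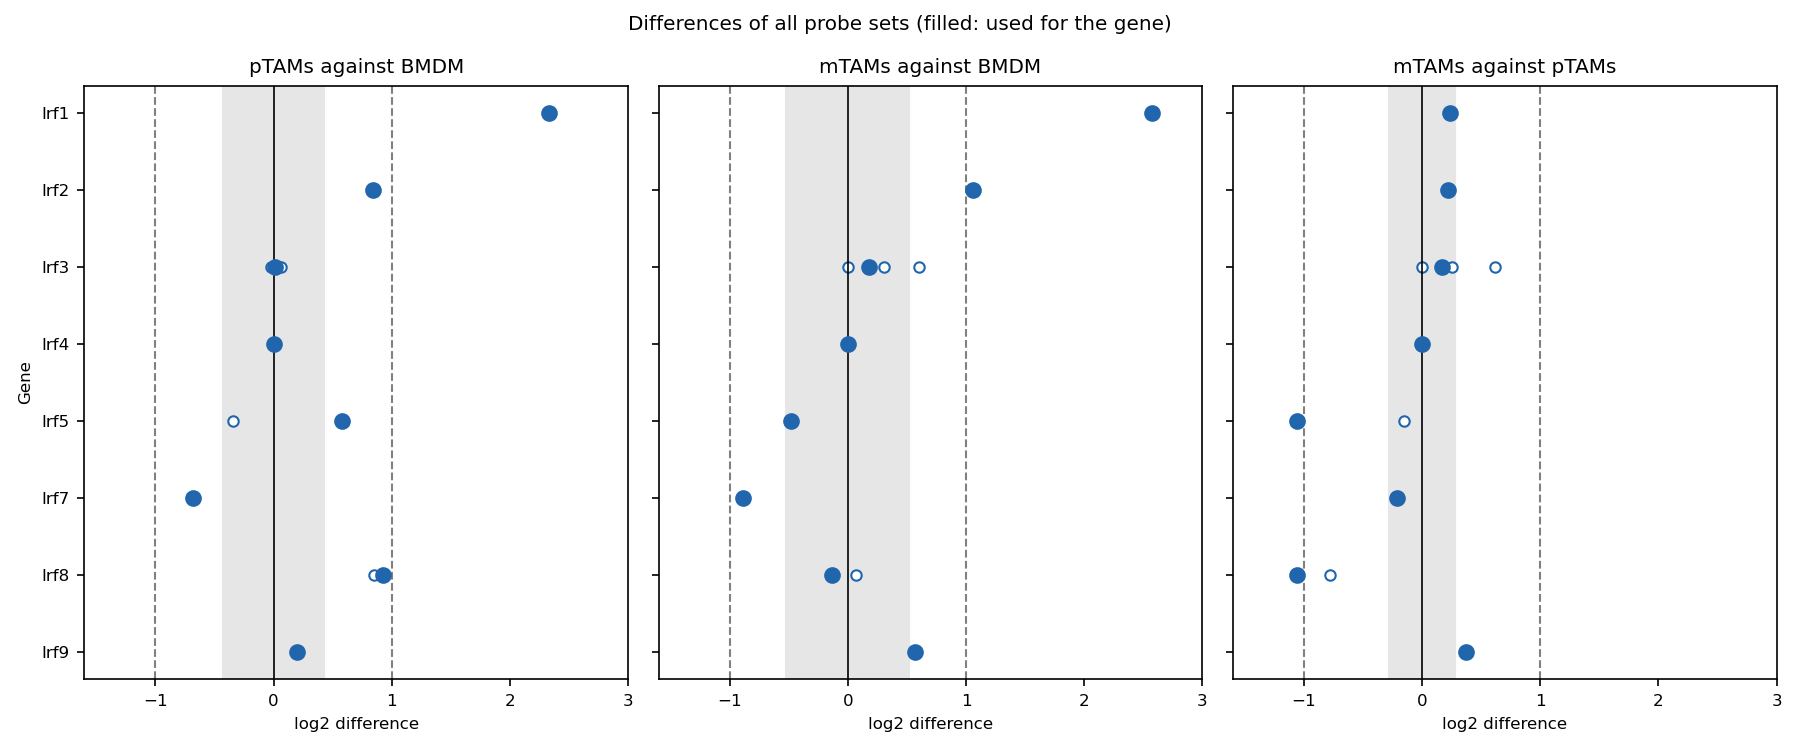
Log2 differences of every probe set in pTAMs against BMDM, mTAMs against BMDM and mTAMs against pTAMs, with a row per gene (filled: the probe set used for the gene; open: others; grey band: plus and minus the SD between probe sets of a gene; dashed lines: 2-fold). *Irf1* lies at 2.33 and 2.57 in the first panels, and the 2 probe sets of *Irf5* lie apart in the first and last panels while those of *Irf8* lie on the same side of 0 there.

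**Figure D4:**
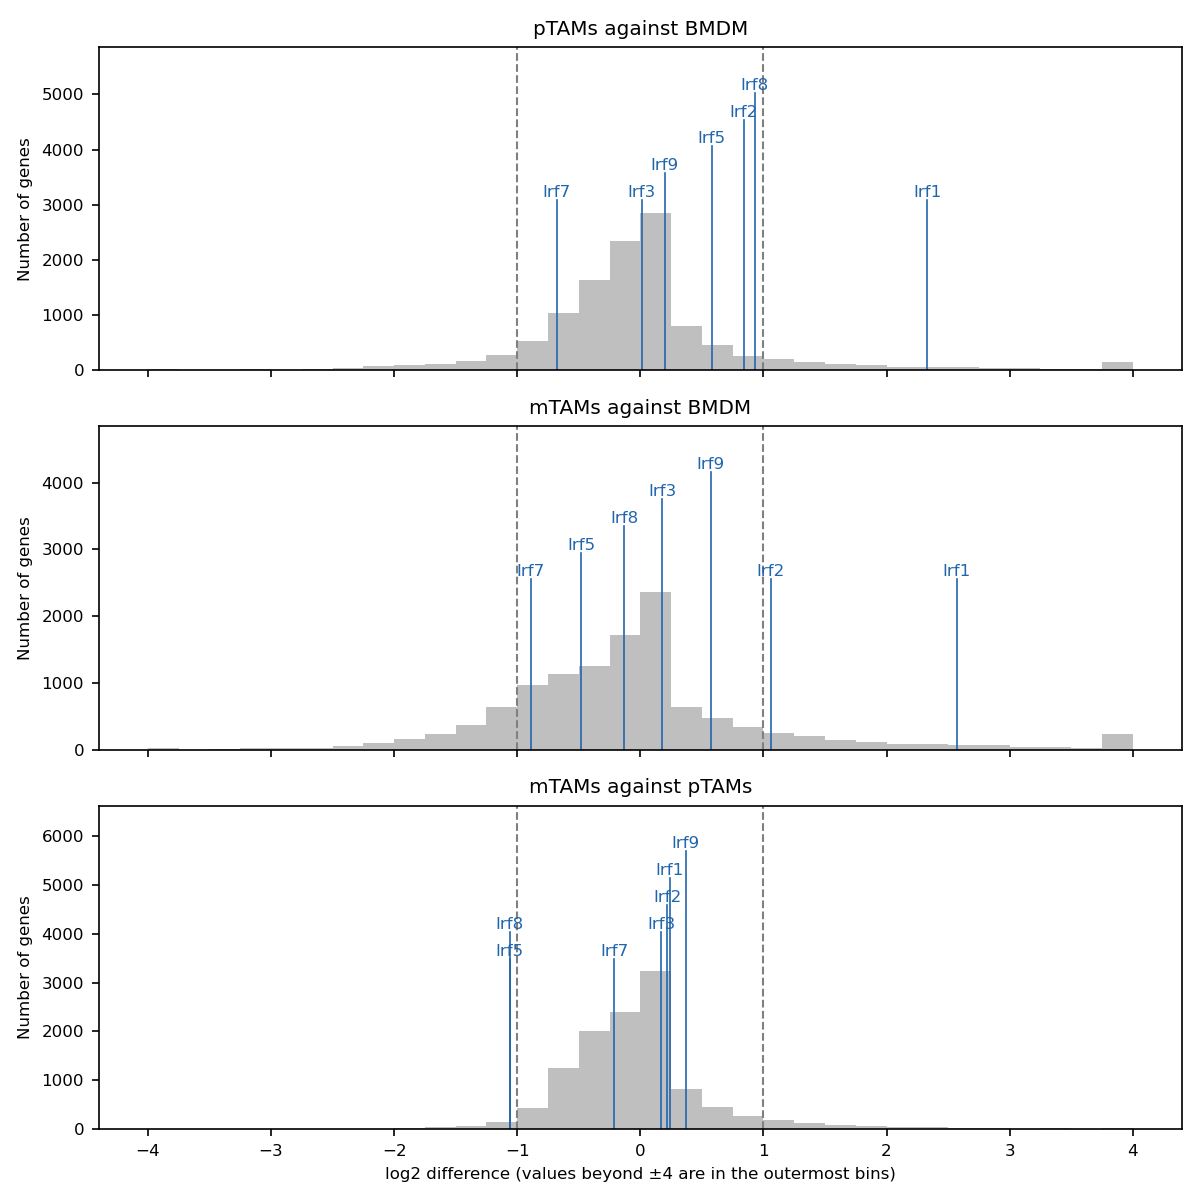
Numbers of compared genes by log2 difference in bins of 0.25 (grey bars), with the 7 compared members marked by blue lines and the 2-fold limits dashed. *Irf1* lies in the upper tail of both comparisons with BMDM, and *Irf5* and *Irf8* lie together in the lower tail of mTAMs against pTAMs.

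The genes around the family were described by lists of pathway members, of which the count in each direction stands beside the shares of all genes given above. Of 20 sensors and adaptors that lead to *Irf3*, *Irf5* and *Irf7*, 2 were higher and 3 lower in mTAMs than in BMDM, and 3 were higher and 1 lower in pTAMs than in BMDM, with medians of -0.03 and 0.01. *Slc15a3*, a lysosomal transporter, was higher by 1.82 in mTAMs and by 2.22 in pTAMs. *Myd88*, the adaptor of Toll-like receptors, was higher by 1.28 in mTAMs, and *Sting1*, the adaptor of the cytosolic DNA pathway, by 1.42 in pTAMs. *Tlr7*, a sensor of RNA, gave -1.04 in mTAMs and -1.38 in pTAMs against BMDM, and *Cgas*, a sensor of DNA, gave -1.14 in mTAMs. Dimmer probe sets of both genes had the same sign but did not reach 2-fold. For *Tlr7* they gave -0.52 and -0.25 in mTAMs and -0.31 and -0.50 in pTAMs, and for *Cgas* -0.68 in mTAMs. No gene of this list reached 2-fold between mTAMs and pTAMs. Of 7 interferon genes on the array, 1 lay above the floor, at 5.61 on all 3 arrays. The others were not compared, so they could not be called in either direction.

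The receptor side was read from 10 genes of interferon receptors, kinases and their inhibitors, of which 3 were higher and 1 lower in either kind of TAMs than in BMDM. *Ifngr1*, the ligand-binding chain of the interferon gamma receptor, had 11.00 in mTAMs and 10.50 in pTAMs, against 9.37 in BMDM. *Jak2*, a kinase of that receptor, had 9.73 in mTAMs and 10.18 in pTAMs, against 8.44 in BMDM. *Usp18*, an inhibitor of the type I interferon receptor and itself an interferon target, had 8.76 in mTAMs and 9.08 in pTAMs, against 10.34 in BMDM.

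Of 7 compared DNA-binding partners of *Irf4* and *Irf8*, 2 were higher and 0 lower in either kind of TAMs than in BMDM, and 1 was higher in mTAMs than in pTAMs. *Batf* had 9.26 in mTAMs, 8.56 in pTAMs and 7.36 in BMDM. *Batf3*, the partner of *Irf8* in conventional dendritic cells, had 7.25 in mTAMs, 7.49 in pTAMs and 6.43 in BMDM. *Spi1*, the gene of PU.1, had 11.49 in mTAMs, 10.70 in pTAMs and 10.52 in BMDM, and so did not share the order of *Irf8*. *Spib* was listed at 4.42 on all 3 arrays, below the floor. *Bcl6*, a transcriptional repressor, had 10.61 in mTAMs, 8.61 in pTAMs and 9.15 in BMDM. Of 10 cofactors and regulators of the family, 1 was higher and 1 lower in mTAMs than in BMDM and 2 were higher in pTAMs than in BMDM. They were led by *Tnfaip3*, a brake on NF-kB and on interferon induction, at 12.15 in mTAMs, 10.48 in pTAMs and 7.62 in BMDM. *Irf2bp2*, a corepressor that binds the *Irf2* protein, was 2.07-fold higher in pTAMs than in BMDM.

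Known target genes of the factors were counted in the same way. Several lists share members, and none of these targets belongs to a single factor. Of 16 genes tied to *Irf1*, 7 were higher and 0 lower in mTAMs than in BMDM, with a median of 0.94, and 10 were higher and 0 lower in pTAMs than in BMDM, with a median of 1.40. *Gbp2*, a guanylate-binding protein, had 11.14 in mTAMs and 11.20 in pTAMs, against 7.72 in BMDM. *Cd274*, the gene of PD-L1, had 9.77 in mTAMs and 10.57 in pTAMs, against 6.58 in BMDM. *Cxcl9*, a chemokine induced by interferon gamma, had 10.56 in mTAMs and 10.82 in pTAMs on its brighter probe set. In BMDM that probe set lay below the floor, which makes it at least 38.3-fold higher in mTAMs and at least 45.9-fold in pTAMs. The dimmer probe set of *Cxcl9* gave 6.83 in mTAMs, 7.02 in pTAMs and 5.87 in BMDM, all above the floor. Its differences against BMDM were only 0.96 in mTAMs and 1.15 in pTAMs. No gene of this list reached 2-fold between mTAMs and pTAMs, as was the case for *Irf1* itself.

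Of 18 targets of ISGF3, 0 were higher and 8 lower in mTAMs than in BMDM, with a median of -0.80, and 1 was higher and 2 lower in pTAMs than in BMDM, with a median of -0.52. In pTAMs these counts lie near the shares of all genes. *Eif2ak2*, an antiviral kinase, had 6.56 in mTAMs, 7.41 in pTAMs and 8.40 in BMDM on its brightest probe set. Another gave 7.06 in mTAMs, 7.06 in pTAMs and 8.09 in BMDM, so the tumor sites did not differ on it. *Cmpk2*, a nucleotide kinase, had 8.27 in mTAMs, 8.97 in pTAMs and 9.59 in BMDM on its brighter probe set. The dimmer probe set of *Cmpk2* did not reach 2-fold, at -0.67 in mTAMs and -0.31 in pTAMs against BMDM. Exceptions were seen, and *Rsad2*, an antiviral enzyme, had 11.76 in pTAMs, against 10.44 in BMDM. *Mx1*, an antiviral GTPase, was the single member 2-fold lower in mTAMs than in pTAMs, at 7.60 against 9.06. Of the 18, only 3 had a difference above 0 in mTAMs against BMDM and 4 in pTAMs against BMDM. *Irf7*, which is induced by interferon as these genes are, was below 0 in both.

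Genes tied to *Irf4* were mostly higher in TAMs although *Irf4* itself was not above the floor. Of 11 compared in mTAMs against BMDM, 8 were higher and 1 lower, with a median of 2.95, and of 12 compared in pTAMs against BMDM, 10 were higher and 0 lower, with a median of 3.54. In BMDM 8 of the 12 lay at or below the floor, and with such values raised to the floor 7 were higher in mTAMs, with a median of 1.27, and 9 in pTAMs, with a median of 2.55. Between the tumor sites, 1 was higher and 7 lower in mTAMs than in pTAMs, or 6 lower with values raised to the floor. *Mgl2*, a lectin of IL-4-treated macrophages, had 7.38 in mTAMs and 10.04 in pTAMs, against 3.92 in BMDM. *Chil3*, a chitinase-like protein, had 13.50 in mTAMs and 11.20 in pTAMs, against 5.02 in BMDM, and is also made by alveolar macrophages and neutrophils.

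Of 7 genes tied to *Irf5* and compared in mTAMs against BMDM, 5 were higher and 0 lower, and of 6 compared in pTAMs against BMDM, 4 were higher and 0 lower. In BMDM 5 of those 7 and 4 of those 6 lay at or below the floor, and with values raised to it 5 were higher in mTAMs and 3 in pTAMs. Between the tumor sites, 2 of 7 were higher in mTAMs than in pTAMs and 0 lower, with a median of 0.65, while *Irf5* on its brighter probe set was lower in mTAMs. *Tnf* had 9.83 in mTAMs, 7.62 in pTAMs and 8.37 in BMDM. *Il12a* had 7.13 in mTAMs and lay below the floor in pTAMs and BMDM. *Il1b*, which also belongs to the list of *Irf8*, had 14.08 in mTAMs and 13.30 in pTAMs and lay below the floor in BMDM.

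Of 13 compared genes tied to *Irf8*, 7 were higher and 0 lower in mTAMs than in BMDM, and 8 were higher and 0 lower in pTAMs than in BMDM, with medians of 1.78 and 1.22. Between the tumor sites 0 were higher and 2 lower in mTAMs, with a median of -0.09. *Aif1*, a macrophage actin-binding protein, had 10.62 in mTAMs, 11.70 in pTAMs and 8.84 in BMDM, and *Fcgr1*, the high-affinity IgG receptor, had 10.58, 12.03 and 10.91. These were the list members that shared the lower mTAM level of *Irf8* at 2-fold. *Cd74*, the MHC class II chaperone, had 12.70 in mTAMs and 13.03 in pTAMs, against 8.38 in BMDM.

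**Figure D5:**
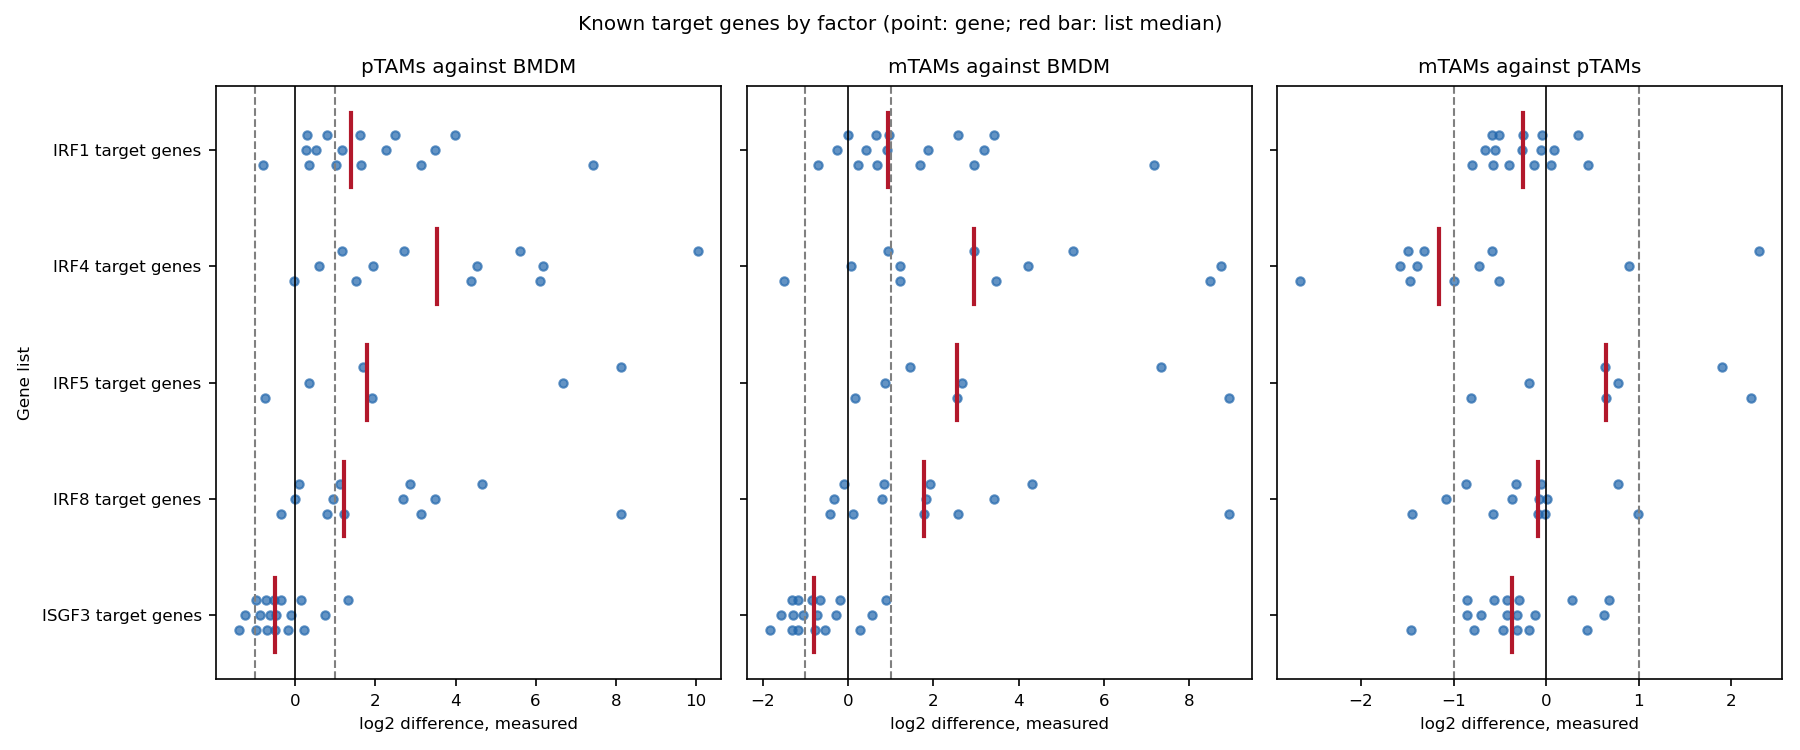
Log2 differences of known target genes by factor in pTAMs against BMDM, mTAMs against BMDM and mTAMs against pTAMs (points: compared genes, spread vertically for legibility; red bars: list medians of measured values; dashed lines: 2-fold; each panel has its own scale). The median of the ISGF3 list lies to the left of 0 in all panels, at -0.52, -0.80 and -0.37, and the list of *Irf4* has a median of -1.16 in mTAMs against pTAMs.

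Genes with the most similar course over the 3 arrays were sought for the 4 members past 2-fold in any comparison, by the Euclidean distance between array values centred on each gene's mean, among 11518 genes. For *Irf1* the nearest were *Cd83* and *Pnrc1*, both at 0.08, and *Samsn1* at 0.11 log2 units. *Cd83*, a marker of activated antigen-presenting cells, had 10.53 in mTAMs, 10.26 in pTAMs and 7.85 in BMDM. Within 0.25 log2 units lay 26 genes for *Irf1*, 213 for *Irf2*, 98 for *Irf5* and 54 for *Irf8*. The nearest were *Fcna*, *Palm* and *Birc2* for *Irf2*, *Parn*, *Selenow* and *Pvr* for *Irf5*, and *Pfkp*, *Maged1* and *Mrpl52* for *Irf8*, all within 0.03. With 3 arrays a profile has few shapes, so many genes lie close to any member.

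Other cells that the sorts could hold were read from marker lists. All 11 neutrophil markers lay above the floor in mTAMs and pTAMs and 8 did in BMDM, with median levels of 12.71 in mTAMs, 10.53 in pTAMs and 6.13 in BMDM, and the log2 of their summed signal was 16.45, 15.22 and 10.75. Of these, 9 were higher in mTAMs than in pTAMs, led by *Cxcr2*, a neutrophil chemokine receptor, at 11.32 against 8.18. All 9 markers of alveolar macrophages were higher in mTAMs than in pTAMs, with median levels of 8.91 in mTAMs, 6.15 in pTAMs and 5.02 in BMDM and with 9, 6 and 3 above the floor. The log2 of their summed signal came to 14.09 in mTAMs, 11.54 in pTAMs and 9.86 in BMDM. Between the tumor sites, both lists were higher in mTAMs while *Irf5* and *Irf8* were lower there. BMDM had the lowest median level and summed signal of both lists. Gene by gene the alveolar list was divided, with 3 of 6 compared higher and 3 lower in pTAMs than in BMDM. For *Irf5* and *Irf8*, BMDM lay between mTAMs and pTAMs on the probe sets used. The part of these cells in the lower *Irf5* and *Irf8* of mTAMs was not tested.

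Cells in which *Irf8* or *Irf4* is known to be expressed were read in the same way. Of 9 markers of conventional dendritic cells, 6 lay above the floor in mTAMs, 7 in pTAMs and 4 in BMDM, with summed signals of 10.56, 10.99 and 8.74 on the log2 scale. Of these, 5 of 7 compared were higher in pTAMs than in BMDM, led by *Fscn1*, an actin-bundling protein, at 9.57 against 4.07, and *Itgax*, the gene of CD11c, at 9.56 against 6.62. In BMDM 3 of those 7 lay at or below the floor, and with values raised to it 4 were higher in pTAMs. The large difference of *Fscn1* was seen on its brightest probe set only. Another gave 7.34 in mTAMs, 7.46 in pTAMs and 7.13 in BMDM, and a further one stood at 5.50 on all 3 arrays. In mTAMs against pTAMs 0 of 7 were above 0, with a median of -0.34, which has the sign of *Irf8* between the tumor sites. In mTAMs against BMDM the median of the 6 compared was 0.88, while *Irf8* gave -0.13 on its brighter probe set. *Xcr1*, which defines a subset of these cells, was below the floor on all 3 arrays, and *Zbtb46*, a factor of the whole lineage, stood at 5.91 in mTAMs, 5.99 in pTAMs and 5.94 in BMDM.

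Of 5 markers of monocytes, 5 lay above the floor in mTAMs, 5 in pTAMs and 4 in BMDM, with summed signals of 14.50, 14.18 and 11.26. All 5 were higher in pTAMs than in BMDM and 4 in mTAMs than in BMDM. In mTAMs against pTAMs their median was -0.93, with *Vcan*, a matrix proteoglycan, at 8.57 against 9.86. *Plac8* stood at 12.76 on both TAM arrays, and *Chil3* alone was above 0. In mTAMs against BMDM the list had a median of 2.21, and *Irf8* gave -0.13 on its brighter probe set. Of 10 markers of B cells and plasma cells, 4 lay above the floor in mTAMs, 3 in pTAMs and 4 in BMDM, with summed signals of 9.09, 10.61 and 8.69. *Sdc1*, a proteoglycan of plasma cells and epithelium, had 7.64 in mTAMs, 10.33 in pTAMs and 7.16 in BMDM, while *Jchain*, the joining chain of immunoglobulins, was above the floor in mTAMs alone, at 6.23, and *Cd79a* stood at 4.57 on all 3. Of 8 markers of plasmacytoid dendritic cells, which also express *Irf7* highly, 4 lay above the floor in mTAMs, 4 in pTAMs and 3 in BMDM, with summed signals of 9.45, 9.95 and 9.59, and *Siglech* stood at 5.72, 5.64 and 5.18.

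The log2 of the summed signal of T and NK cell markers came to 9.78 in mTAMs, 8.85 in pTAMs and 8.90 in BMDM, and that of fibroblast markers to 12.32, 10.13 and 7.98. For epithelial and carcinoma markers it came to 12.77, 12.09 and 8.38, but the higher sum in mTAMs came from *Scgb1a1*, an airway secretory protein, at 12.17 against 4.21 in pTAMs. The median of that list in mTAMs against pTAMs was -0.66, with 2 of 9 above 0 and *Cdh1*, the gene of E-cadherin, at 8.16 against 9.88. The part of any of these cells in the differences of the family was not tested.

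Immediate early and heat shock genes, which answer stimuli and tissue handling quickly, were high on the same arrays as *Irf1*. Of 15 such genes, 15 were higher in mTAMs than in BMDM and 14 were higher in pTAMs than in BMDM, with medians of 3.90 and 3.42. All 15 lay above the floor in mTAMs and in pTAMs and 13 did in BMDM, and their summed signal on the log2 scale came to 16.63 in mTAMs, 15.87 in pTAMs and 12.87 in BMDM. The part of handling in the level of *Irf1* was not tested. Between mTAMs and pTAMs the list had a median of 0.71, with 4 of 15 higher in mTAMs, 0 lower and all 15 above 0.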

How the data were processed

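Expression had been measured on Affymetrix mouse arrays hybridised with biotin-labeled material from total RNA, with 1 array each of mTAMs, pTAMs and BMDM. The authors deposited a table of RMA log2 values, in which background correction, quantile normalization between arrays and summary per probe set are already done. The sources used here give no version of RMA. Quantile normalization hides a shift of the whole transcriptome.

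Of 45037 probe sets, 34945 had a single gene symbol in the platform annotation, 932 had several and 9160 had none, and only the first kind was used. Gene IDs were found in RefSeq (GRCm38.p6) for 34741 of these and for all 8 members. For each gene, the probe set with the highest mean of the 3 arrays was used. The floor was the 95th percentile of 83 probe sets of olfactory, vomeronasal and bitter taste receptors. Where a value did not exceed the floor, the fold was taken against the floor, as a lower bound. The number of columns of other samples was 0.

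The members, lists, motifs and thresholds were chosen with earlier results of these data known. The rule for names took all members, at most 3 genes per list and direction with the largest difference among those past 2-fold in a comparison, the partners *Stat2*, *Spi1*, *Batf*, *Batf3* and *Spib*, and the 3 nearest genes of each member past 2-fold. *Adgre1*, *Itgam*, *Xcr1*, *Zbtb46*, *Siglech* and *Cd79a* were named outside this rule, to check identity or handling. Some genes that the rule names are not reported here.

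Alternatives were median-centring, cyclic loess or a repeated quantile normalization, averaging all probe sets of a gene, only probe sets not marked as shared, no floor, a floor 1 log2 unit higher, values raised to the floor, and thresholds of 3-fold and 1.5-fold. A floor of 5.56 from 86 probe sets, with all taste receptors, was added after seeing the data. The procedure was tried on simulated arrays, with differences put in that all lay beyond the 2-fold threshold. Differences close to that threshold, as those of *Irf2*, *Irf5* and *Irf8* are, were not simulated. Cyclic loess came from limma 3.58.1 (R 4.3.3), and all else was done in Python 3.11.15 (pandas 2.3.3, numpy 2.4.6, figures with matplotlib 3.10.9).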

Additional observations from a re-analysis of the deposited data

Results flagged for a closer look

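On the probe sets used for them, the values of *Irf5* and *Irf8* lay on opposite sides of BMDM at the tumor sites, with the same BMDM array in both comparisons. For *Irf5* the log2 difference was -0.48 in mTAMs against BMDM and 0.58 in pTAMs against BMDM, and the sign of the second turned on the dimmer probe set. For *Irf8* it was -0.13 in mTAMs against BMDM and 0.93 in pTAMs against BMDM. The -0.13 is 0.25 times the SD between probe sets, and the second probe set of *Irf8* gave 0.07 and cyclic loess 0.09, on the same side of BMDM as pTAMs. With 1 array per group the differences were not tested, and no group was large enough to look for a sample that stands apart.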

How the results depend on the processing

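Over 11 alternatives, 261 of 264 values of the members stayed within the SD between probe sets of their value as reported, and none of the called differences changed sign. The exceptions were *Irf5* with the mean of its probe sets, at 0.12 in pTAMs against BMDM and -0.60 in mTAMs against pTAMs, and *Irf3* on its unshared probe set, at 0.62 in mTAMs against pTAMs. The share of 261 is not a measure of robustness, because many of these values could not move. Alternatives that set only the floor or the threshold left every log2 difference of the members unchanged. The choice among probe sets cannot move a member that has a single probe set. *Irf1* ranged from 2.50 to 2.80 in mTAMs and from 2.26 to 2.39 in pTAMs against BMDM. The count of members higher in mTAMs than in BMDM was 1 with median-centred arrays and 1 at a 3-fold threshold, in place of 2. The count lower in mTAMs than in pTAMs was 0 with cyclic loess, 0 with the mean of all probe sets and 0 at 3-fold, in place of 2. At 1.5-fold, 1 member was lower in mTAMs than in BMDM, and 3 were higher and 1 lower in pTAMs than in BMDM.

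Over all genes, a 3-fold threshold gave 862 higher and 575 lower genes in mTAMs against BMDM, 637 and 378 in pTAMs against BMDM, and 294 and 58 in mTAMs against pTAMs, in place of 1368 and 1715, 1041 and 890, and 633 and 304. At 1.5-fold, 3410 were lower in mTAMs than in BMDM, 1564 were higher and 2046 lower in pTAMs than in BMDM, and 1171 were higher and 1470 lower in mTAMs than in pTAMs. Cyclic loess moved the median of all genes in mTAMs against BMDM by over 0.1 log2 units, to 0.00 in place of -0.11, and gave 1548 higher and 1259 lower genes, so that 55.1% of the called genes were higher in place of 44.4%. No paired analysis was possible because each group has 1 array. Signal over background limits *Irf4*, which lay at the floor and passed it with median-centred arrays or a repeated quantile normalization, with differences from -0.07 to 0.02 over all alternatives, and the dimmer probe set of *Irf5*.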
